A study of Mus musculus with 4 samples.

Results

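The transcripts described here are mouse genes that the deposited table lists under a RIKEN clone symbol ending in Rik, the provisional name given to cDNAs of the RIKEN collection whose product had no agreed name. Of 1922 such symbols among 26322 genes listed, 165 had a mean over the 4 libraries of at least 3 on the log2 CPM scale (CPM, reads scaled to library size), and these 165 are the members. They were selected on that mean level. A130040M12Rik, 2810025M15Rik and 2200002D01Rik were also chosen by the size of their difference between the groups, so their values are given as a description, without a test. 2200002D01Rik has a mean of 2.63, is therefore outside the 165, and is shown beside them.

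The cells were MC38, a mouse colon cancer cell line, electroporated with Cas9 protein complexed to a guide RNA. In the sgNT group (2 libraries) the guide was non-targeting, and in the sgCbfb group (2 libraries) it targeted Cbfb, so every library comes from cells that received Cas9 and a guide. The study names 1 guide for Cbfb, and whether the sequenced cells were a pool or a clone is not given in the sources used here. The libraries were made by 3′ mRNA sequencing, which reads the ends of polyadenylated transcripts. The labels do not say whether the libraries of a group came from separate cultures, so the p-values measure only the spread between these libraries, which may be technical.

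A Rik symbol is a name and not a function, and the members are of several kinds. Some encode proteins that have since been named, others are long non-coding RNAs, transcripts without a long reading frame that can act in the nucleus or the cytoplasm or have no known role, and some host small nucleolar RNAs, which guide chemical modification of ribosomal RNA and are cut from the introns of the host. Cbfb encodes CBFβ, the partner that stabilises RUNX transcription factors on DNA at the core site TGTGGT or TGCGGT.

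The libraries held 3396192 and 3335116 reads on genes for sgNT and 3907936 and 3189035 for sgCbfb, recovered as whole reads from the deposited values. Cbfb had 295 and 285 reads in sgNT and 125 and 125 in sgCbfb, a log2 fold change of −1.27 (SE 0.12, adjusted p = 1.76e-07, limma). That fold change ran from −1.41 to −1.12 in the fits without 1 library. As to the labelled cell type, the keratin Krt8 had 1 to 4 reads and Krt18 had 0 in each library, which allows up to 3 reads, while the mesenchymal marker Vim had 6737 to 8669. Of the fibroblast markers, Pdgfra had 121 and 91 reads in sgNT and 169 and 152 in sgCbfb, Dcn had 95 to 116 over the libraries and Col1a1 8 to 13. Their part in the results was not tested. The T cell genes Cd3e and Cd8a had 0 reads in each library and the leukocyte gene Ptprc had 1 read in 1 library. Fewer cells of a type and less RNA per cell cannot be told apart in such bulk samples.

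The members took 23567 and 23319 reads in sgNT (0.694% and 0.699% of the library) and 27381 and 21891 in sgCbfb (0.701% and 0.686%). Their summed share was therefore about the same in the 4 libraries. The median member had 70 and 71 reads in sgNT and 85 and 65 in sgCbfb, and the lowest had 17 to 23 reads depending on the library. In 68 of 165 members (41.2%) the lowest library had under 50 reads, and 60 members (36.4%) had a mean under 4, so counting error is large for many of them.

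Windows of 250 bases before the annotated start were read from RefSeq (GRCm38.p6, whose gene table was matched by symbol) for 135 of the 165 members. They are shown for 5730408K05Rik and 2810474O19Rik, the members past an adjusted p of 0.05 that have a window, and for 2200002D01Rik. For contrast they are shown for 2900026A02Rik and 2010204K13Rik, 2 members that hold the core letters, each with the first of its 2 windows. These 2 are examples and are not given as the largest differences among all members that hold the letters. Capitals mark the letters TGTGGT or TGCGGT or their reverse complements ACCACA and ACCGCA, searched on both strands, and windows without capitals hold none.

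5730408K05Rik, chr19:8888771-8889020, minus strand: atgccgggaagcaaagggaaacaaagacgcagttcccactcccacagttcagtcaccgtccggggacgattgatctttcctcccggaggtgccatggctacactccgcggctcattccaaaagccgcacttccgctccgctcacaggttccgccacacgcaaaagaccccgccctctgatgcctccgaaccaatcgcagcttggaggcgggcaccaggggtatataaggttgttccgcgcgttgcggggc
2810474O19Rik (Resf1), chr6:149309164-149309413, plus strand: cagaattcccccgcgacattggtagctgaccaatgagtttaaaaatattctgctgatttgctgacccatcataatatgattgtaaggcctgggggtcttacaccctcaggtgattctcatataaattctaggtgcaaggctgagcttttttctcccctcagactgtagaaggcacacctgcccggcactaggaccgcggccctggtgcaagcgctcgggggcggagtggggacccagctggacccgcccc
2200002D01Rik, chr7:29248468-29248717, minus strand: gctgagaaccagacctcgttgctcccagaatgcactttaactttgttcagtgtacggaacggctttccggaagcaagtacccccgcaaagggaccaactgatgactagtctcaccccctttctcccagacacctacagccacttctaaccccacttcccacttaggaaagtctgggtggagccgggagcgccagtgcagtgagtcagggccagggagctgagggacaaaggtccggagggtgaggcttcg
2900026A02Rik, chr5:113221277-113221526, minus strand: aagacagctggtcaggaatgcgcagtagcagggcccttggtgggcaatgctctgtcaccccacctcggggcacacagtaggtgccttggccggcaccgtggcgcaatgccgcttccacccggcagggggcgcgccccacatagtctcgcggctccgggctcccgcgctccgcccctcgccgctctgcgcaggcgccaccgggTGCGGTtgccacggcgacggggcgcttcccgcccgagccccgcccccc
2010204K13Rik, chrX:7422989-7423238, minus strand: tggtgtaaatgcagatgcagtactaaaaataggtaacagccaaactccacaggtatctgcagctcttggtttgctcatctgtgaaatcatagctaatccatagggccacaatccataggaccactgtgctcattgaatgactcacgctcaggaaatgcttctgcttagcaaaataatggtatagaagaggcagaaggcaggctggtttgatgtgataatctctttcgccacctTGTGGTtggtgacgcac

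The core letters were present in 29 of 135 members with a window (21.5%), against 5656 of 27025 genes in the table (20.9%). By window they were in 32 of 155 for members (20.6%) and 6107 of 32851 in the table (18.6%). The windows of 5730408K05Rik, 2810474O19Rik and 2200002D01Rik held none. A match is a description of letters in this window and not of binding, and A130040M12Rik and 2810025M15Rik had no window in the table.

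The largest difference among the members was that of A130040M12Rik, which the annotation tables did not match. It had 716 and 593 reads in sgNT and 258 and 223 in sgCbfb. The highest sgCbfb library was below the lowest of sgNT. On the log2 CPM scale sgNT averaged 7.60 ± 0.17 and sgCbfb 6.10 ± 0.058 (SD over 2 libraries each), a log2 fold change of −1.50 (SE 0.095), which corresponds to 35.3% of sgNT on this scale with its prior count.

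2810025M15Rik had the largest difference upward. It had 102 and 99 reads in sgNT and 232 and 214 in sgCbfb. No sgNT library reached either sgCbfb value. On the log2 CPM scale sgNT averaged 4.93 ± 0.012 and sgCbfb 5.99 ± 0.12 (SD over 2 libraries each), a log2 fold change of 1.07 (SE 0.13). RefSeq lists it as a long non-coding RNA and GENCODE as a transcribed processed pseudogene. Its GENCODE position is chromosome 1, 157412352 to 157420236, plus strand, and its exons overlap those of Rasal2 on the opposite strand. Rasal2, which encodes a Ras GTPase-activating protein, had 102 and 115 reads in sgNT and 208 and 178 in sgCbfb, a log2 fold change of 0.75 (SE 0.13, adjusted p = 0.00108, limma). Its call was lost in 5 of 12 alternatives, among them quantile normalization (log2 fold change 0.72, adjusted p = 0.0781, limma) and the fits without either sgCbfb library. The annotated starts of 2810025M15Rik and Rasal2 lie within 1000 bases of each other on opposite strands, while the libraries read transcript ends. How strand was used in counting is not stated, so any reads from the overlapping exons cannot be assigned to 1 of the 2 genes. The share of such reads was not measured.

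2200002D01Rik, outside the members by its mean, had 9 and 10 reads in sgNT and 39 and 37 in sgCbfb. The 2 groups did not overlap, and the log2 fold change was 1.74 (SE 0.32). Its gene lies on chromosome 7 from 29246561 to 29248466 and overlaps exons of Yif1b on the opposite strand. Yif1b had 211 and 196 reads in sgNT and 281 and 197 in sgCbfb, a log2 fold change of 0.14 (adjusted p = 0.628, limma).

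Across all 12207 genes tested, 2.83% passed an adjusted p of 0.05 (limma, Benjamini-Hochberg adjustment over the whole table), 1.57% higher and 1.25% lower in sgCbfb. Of the 165 members, all of which were tested, 4 passed (2.42%), 1 higher and 3 lower, and A130040M12Rik and 2810025M15Rik are 2 of these, which says nothing further since they were picked for their difference. Without them, 2 of 163 passed (1.23%), both lower. Of the 8354 other genes with a mean of at least 3, 3.46% passed. These were not matched to the members in level. Their median level was 5.31 on the log2 CPM scale with a median SE of 0.141, against 4.46 and 0.187 for the members. No difference between these shares was tested.

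5730408K05Rik, a long non-coding RNA, had 950 and 1000 reads in sgNT and 791 and 742 in sgCbfb. Its RefSeq position is chromosome 19, 8888387 to 8888770. The groups did not overlap, and the log2 fold change was −0.42 (SE 0.076, adjusted p = 0.00151, limma). 2810474O19Rik is now named Resf1, a retroelement silencing factor, and lies on chromosome 6 from 149309414 to 149335663. It had 569 and 635 reads in sgNT and 566 and 433 in sgCbfb, and in CPM the groups did not overlap, with 168 and 190 in sgNT against 145 and 136 in sgCbfb. Its log2 fold change was −0.35 (SE 0.084, adjusted p = 0.0184, limma). Neither call held without sgNT replicate 2 (adjusted p = 0.0715 for 5730408K05Rik and 0.311 for 2810474O19Rik, limma), with quantile normalization (0.153 and 0.177), with no filter on low values or with no mean-variance trend. Without either sgCbfb library 0 of 12207 genes passed (limma), where 1104 and 1169 had an unadjusted p under 0.05. The log2 fold changes had ranges from −0.52 to −0.32 for 5730408K05Rik and from −0.44 to −0.26 for 2810474O19Rik over the fits without 1 library.

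**Figure D1:**
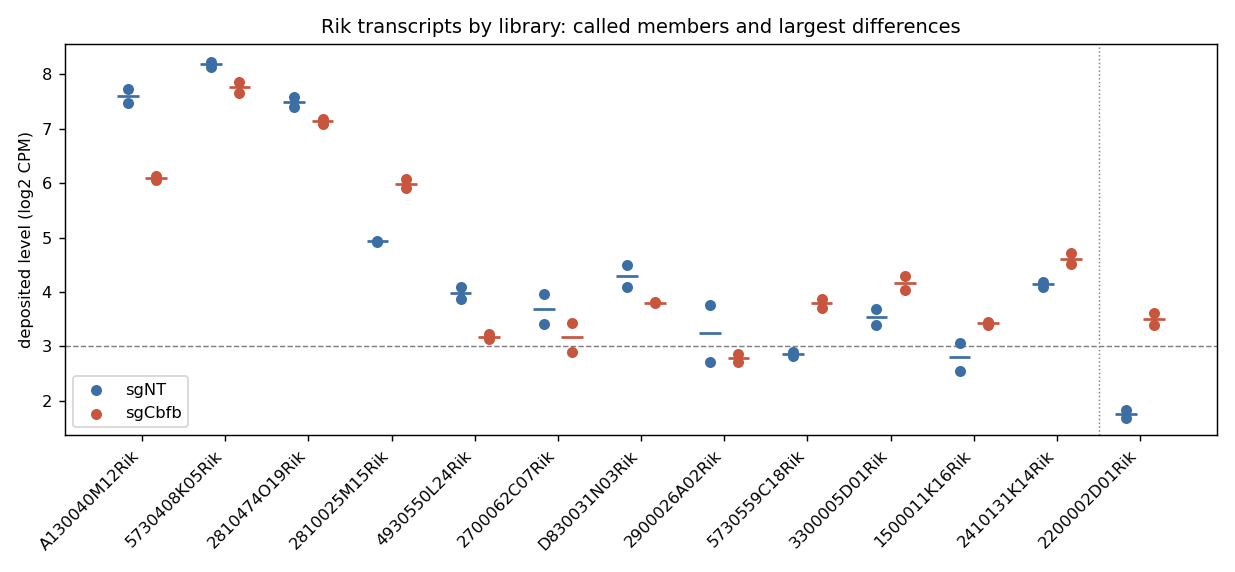
Deposited level (log2 CPM) of Rik transcripts in each of the 4 libraries, with blue points for sgNT, red points for sgCbfb and a bar at each group mean of 2 libraries. The dashed line is the mean of 3 that chose the members, and 2200002D01Rik, right of the dotted line, is outside them. Among the members the groups stand furthest apart in A130040M12Rik (sgCbfb lower) and 2810025M15Rik (sgCbfb higher).

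The other members with large differences did not pass the main test, though 5730559C18Rik and 4930550L24Rik each passed in 3 of 12 alternatives. 5730559C18Rik, now Inava, an activator of innate immune signalling, had 22 and 23 reads in sgNT and 55 and 40 in sgCbfb, a log2 fold change of 0.93 (SE 0.26, adjusted p = 0.0559, limma). 4930550L24Rik, a protein-coding gene on the X chromosome, had 56 and 47 reads in sgNT and 32 and 28 in sgCbfb, a log2 fold change of −0.80 (adjusted p = 0.0802, limma). In both genes the groups did not overlap. The long non-coding 3300005D01Rik had 42 and 33 reads in sgNT and 62 and 61 in sgCbfb, a log2 fold change of 0.63 (adjusted p = 0.166, limma). 2700062C07Rik had 34 and 50 reads in sgNT and 40 and 22 in sgCbfb, with overlapping groups and a log2 fold change of −0.51 (adjusted p = 0.409, limma) that ran from −0.79 to −0.24 without 1 library. D830031N03Rik had 75 and 55 reads in sgNT and 52 and 43 in sgCbfb, without overlap in CPM and with a log2 fold change of −0.49 (adjusted p = 0.271, limma) that ran from −0.70 to −0.29 without 1 library. 2900026A02Rik, at −0.46, had 44 and 20 reads in sgNT and 26 and 19 in sgCbfb, where the 2 sgNT libraries span more than the difference between groups.

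The size of differences over all members was small. The median log2 fold change was 0.036, against 0.039 for all genes tested. Of the members 97 were positive (58.8%) and 68 negative, where 57.0% of all genes tested were positive. With median centring the medians were 0.013 for members and 0.016 for all genes, and with quantile normalization 0.0026 and 0.0027. The 10th and 90th percentiles were −0.26 and 0.31. Of the members 7 (4.24%) differed by more than 0.5 in size, against 5.31% of the other genes with a mean of at least 3, whose median level was higher. At an unadjusted p of 0.05, 22 members (13.3%) passed, 13 higher and 9 lower, against 14.9% of all genes tested. The groups did not overlap in 38 members with sgCbfb higher and 32 with sgCbfb lower, against 27.4% and 16.8% of all genes tested. For 68 members the 95% confidence interval of the log2 fold change lay wholly within 0.5 of 0, and for 155 of 165 within 1.

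**Figure D2:**
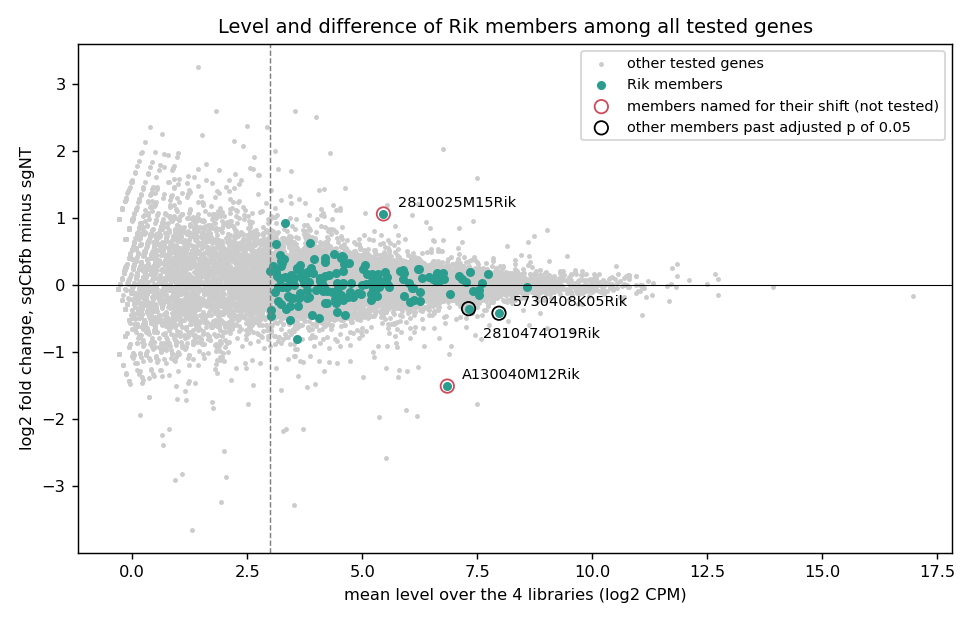
Log2 fold change (sgCbfb minus sgNT) against mean level (log2 CPM) for all 12207 genes tested in grey and the 165 members in green. Red circles mark the 2 members named for their shift, and black circles mark the other 2 past an adjusted p of 0.05. Members scatter around 0 within the cloud of other genes.

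**Figure D3:**
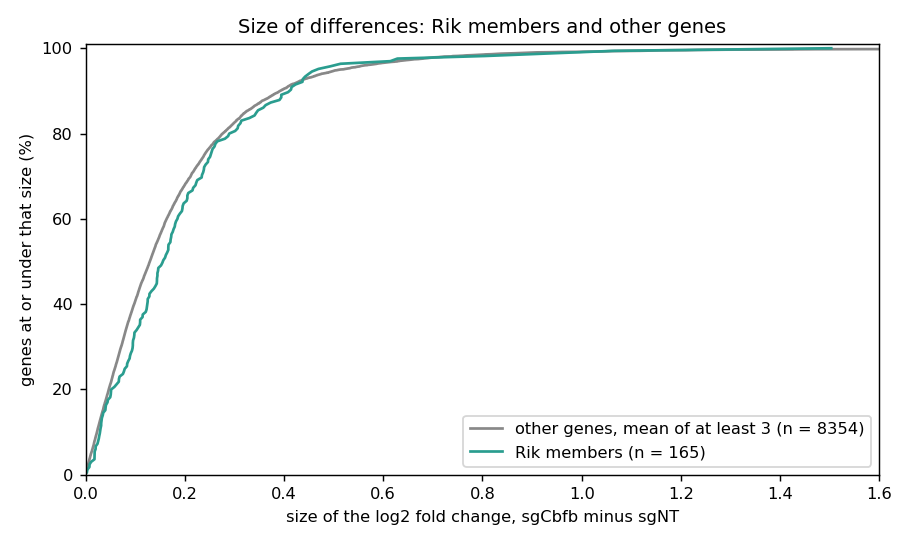
Cumulative share of genes (%) by the size of the log2 fold change, for the 165 members (green) and for the 8354 other genes with a mean of at least 3 (grey). The members' curve lies slightly to the right at small sizes, and the curves meet at larger ones.

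Precision followed the level. The median SE of the log2 fold change was 0.26 for the 60 members with a mean of 3 to 4, and 0.19 for the 44 from 4 to 5. It was 0.14 for the 29 members from 5 to 6, 0.10 for the 20 from 6 to 7 and 0.078 for the 12 above 7. The members closest to the limit were 4931428F04Rik with a mean of 3.001, 2900026A02Rik with 3.010 and 9330182L06Rik with 3.014, and just under it were 1110008L16Rik with 2.999 and A730063M14Rik with 2.96.

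By annotation, 114 members are protein-coding, 46 are long non-coding RNAs, 4 are pseudogenes and 1 is unmatched. One protein-coding member (0.877%) passed the test, against 2.83% of all genes tested, with a median log2 fold change of 0.055 over the 114, and 2 long non-coding members (4.35%) did, 5730408K05Rik and the preselected 2810025M15Rik, with a median of 0.032 over the 46. Overlap was read for the 155 members with a GENCODE position, so A130040M12Rik, 5730408K05Rik and the 8 others without one were not assessed. Exons of 69 of the 155 overlap another gene, on the opposite strand for 59, and apart from 2810025M15Rik, which was picked for its difference, 0 of these passed (limma); 7 of the 69, it included, had an unadjusted p under 0.05 (10.1%, against 14.9% of all genes tested).

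Of the 165 members, 31 carry a newer RefSeq symbol. These and 2 others with a described role, grouped after their values were known, show the proteins behind the Rik names. Resf1 was the one of these 33 that passed the test, against 2.83% of all genes tested.

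In the mitochondrial group 0 of 7 members passed (limma), and 2 (28.6%) had an unadjusted p under 0.05. Over all genes tested these shares were 2.83% and 14.9%. 1500011K16Rik, now Mtln, encodes mitoregulin, a micropeptide of the inner membrane, and had 18 and 26 reads in sgNT against 39 and 33 in sgCbfb, a log2 fold change of 0.61 (adjusted p = 0.320, limma). 1810058I24Rik, a short mitochondrial membrane protein, stood at 0.23, the ATP synthase subunit Atp5mpl (2010107E04Rik) at 0.14 and Micos13 (2410015M20Rik), a subunit of the cristae organising complex, at −0.018. The outer membrane microprotein Pigbos1 (2310009A05Rik) stood at −0.25, the stress relay Dele1 (0610009O20Rik) at −0.084 and Mtres1 (1700021F05Rik) at −0.22, all as log2 fold changes. The values had both signs.

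Among 5 cilium genes 0 passed (limma), and 1 (20%), Iftap, had an unadjusted p under 0.05, against 14.9% of all genes tested. Cplane1 (2410089E03Rik), needed to build cilia, had a log2 fold change of −0.25, 2700049A03Rik, the basal body protein Talpid3, −0.26 and Cfap410 (1810043G02Rik) −0.28. Iftap (B230118H07Rik) stood at 0.41 and Cfap298 (1110004E09Rik) at 0.067. Of the 8 membrane traffic and secretion genes 0 passed (limma), and 1 (12.5%), Spring1, had an unadjusted p under 0.05, against 14.9% of all genes tested. Rab5if (1110008F13Rik) had the most reads of any member, 1308 and 1291 in sgNT and 1505 and 1204 in sgCbfb, with a log2 fold change of −0.018 and a confidence interval from −0.15 to 0.11. Spring1 (2410131K14Rik), which acts in the SREBP pathway of sterol control, had 56 and 59 reads in sgNT and 100 and 71 in sgCbfb, a log2 fold change of 0.47 (adjusted p = 0.214, limma). The ALS gene C9orf72 (3110043O21Rik) stood at 0.0028.

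In the nuclear group of 4, Resf1 passed (25%, against 2.83% of all genes tested), and 2 (50%), Resf1 and Khdc4, had an unadjusted p under 0.05, against 14.9%. Rbis (1810022K09Rik), which acts in ribosome assembly, had a log2 fold change of 0.11 and Cyren (3110062M04Rik), a regulator of DNA end joining, 0.15, and neither passed. Khdc4 (2810403A07Rik), a splicing factor, had 291 and 265 reads in sgNT and 280 and 217 in sgCbfb, a log2 fold change of −0.24 (adjusted p = 0.259, limma). In the signalling group of 3, Inava stood at 0.93 as given above. Cip2a (C330027C09Rik), an inhibitor of the phosphatase PP2A, had a log2 fold change of −0.067 and Garre1 (4931406P16Rik), an effector of Rac1, −0.39, and 0 of the 3 passed (limma), where Inava and Garre1 had an unadjusted p under 0.05, against 14.9% of all genes tested, in a group formed after the values were seen. The named long non-coding RNAs also did not pass, with log2 fold changes of 0.18 for Snhg16 (1810032O08Rik), −0.13 for Oip5os1 (1700020I14Rik) and 0.077 for Chaserr (1810026B05Rik).

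**Figure D4:**
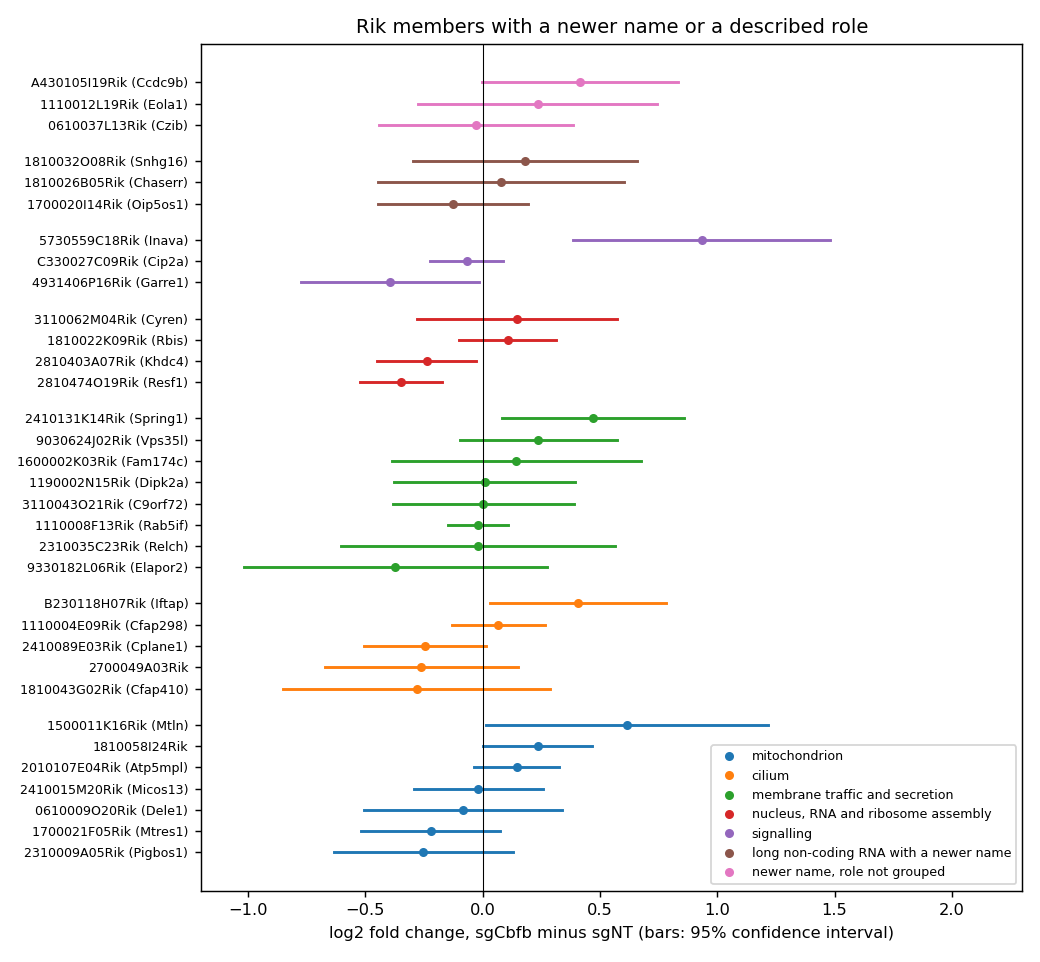
Log2 fold change (sgCbfb minus sgNT) with its 95% confidence interval for 33 members with a newer name or a described role, coloured by group. Several bars exclude 0, those of Inava, Spring1, Mtln, Iftap and 1810058I24Rik above it and those of Resf1, Khdc4 and Garre1 below it, but Resf1 alone passed an adjusted p of 0.05.

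Small nucleolar or Cajal body RNA genes lie inside 8 of the 155 members with a GENCODE position, of which 0 passed the test (limma) and 3 had an unadjusted p under 0.05, against 14.9% of all genes tested. Their log2 fold changes ran from −0.24 to 0.24 with a median of 0.17, 5 positive and 3 negative. Of the 3, Khdc4 was lower, at the −0.24 given above, and the others were higher. 1110038B12Rik had 516 and 508 reads in sgNT and 697 and 543 in sgCbfb, a log2 fold change of 0.20 (adjusted p = 0.214, limma). 2410006H16Rik had 709 and 645 reads in sgNT and 835 and 766 in sgCbfb, a log2 fold change of 0.17 (adjusted p = 0.285, limma). In CPM the groups did not overlap for these 3 of the 8 members (37.5%), against 44.1% of all genes tested.

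Replicates of a group differed by a median of 0.17 log2 units over the members in sgNT and 0.18 in sgCbfb. In sgNT the replicates differed most in 2900026A02Rik and 4930526I15Rik, and in sgCbfb in 3010003L21Rik and B230208H11Rik. For 1 gene, exact permutation of 2 against 2 libraries gives a two-sided p of 0.333 at best, so p-values come only from the fit across all genes.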

How the data were processed

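MC38 cells were sequenced in 4 libraries, 2 for sgNT (labelled WT) and 2 for sgCbfb (labelled CbfbKO). Per the labels and the study's methods, the authors trimmed reads with cutadapt 1.9, aligned them with HISAT2 2.1.0 to GRCm38/mm10 and counted them per gene; the submitters' processing notes name featureCounts 2.0.1 and the study's methods an older Subread release. The authors deposited log2 CPM values, scaled to the library total with a prior count of 2. Strand use and the treatment of reads matching several genes are not stated, which could change overlapping genes.

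Whole reads were recovered from the deposited values, each within 0.1 of a whole number for up to 1000 reads, and describe depth. The main test was limma 3.58.1 in R 4.3.3 (lmFit, eBayes with a mean-variance trend, two-sided, Benjamini-Hochberg) on the deposited log2 values of the 12207 genes that reached 0 on that scale in 2 or more libraries, and was tested on simulated data. Values were taken from Python 3.11.15 summaries. Annotation came from GENCODE M21 and RefSeq GRCm38.p6, and placed 164 of 165 members. The members and lists were chosen with earlier results of these data known. Genes named are those in the selection, those past the threshold, the largest differences each way, those with the most reads and those at the limit of the mean. Role groups were made after the values were seen. Alternatives were another filter, normalization, trend, voom weights, the replicate block and leaving out each library. Counting intervals and limits cover counting error only.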

Additional observations from a re-analysis of the deposited data

How the results depend on the processing

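The members past an adjusted p of 0.05 were 1 higher and 3 lower, among 345 calls in 12207 genes. Both 2810025M15Rik (higher) and A130040M12Rik (lower) are in these counts and were picked for their difference. Without them the counts were 0 higher and 2 lower. The member counts below include both unless stated. The calls over all genes were 509 of 9549 with a minimum of 5 CPM, 535 with the replicate block, 454 with voom on library totals, 416 with voom on median-of-ratios scaling, 83 with quantile normalization, 55 of 26322 with no filter and 0 without the mean-variance trend (limma; 1461 had an unadjusted p under 0.05). The count of higher members became 2 with a minimum of 5 CPM, 2 with the replicate number as a block, 2 with voom on library totals and 2 with a member mean of at least 2, where the added gene is 2200002D01Rik, picked for its difference. It was 0 with no filter, 0 without the mean-variance trend and 0 without members whose exons overlap another gene, an alternative chosen after seeing the data that keeps the 10 members whose overlap was not assessed. The count of lower members was 0 with no filter, 0 without the trend and 1 with quantile normalization, which lost 2810474O19Rik and 5730408K05Rik. It was 2 at a threshold of 0.01, and 4 each with a minimum of 5 CPM, with the block and with voom on median-of-ratios scaling. Without 1 library the counts ran from 0 to 1 higher and from 0 to 3 lower, and 0 of 12207 genes passed (limma) without either sgCbfb library, where 1104 and 1169 had an unadjusted p under 0.05; such fits assume that the lone library varies like the other group. The block added 5730559C18Rik and 4930550L24Rik to the calls (adjusted p = 0.0258 and 0.0433, limma), as did a minimum of 5 CPM (0.0215 and 0.0371), and voom added 5730559C18Rik on library totals (0.0378) and 4930550L24Rik on median-of-ratios scaling (0.0454). The deviations of equally numbered libraries from their group means had a correlation of −0.0042 over the genes tested. Counting error alone could hold this value near 0, so it does not settle whether the libraries are paired.

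The sign of the log2 fold change turned without 1 library in 70 of 165 members, of which 37 had under 50 reads in their lowest library. Single values were recomputed for 56 genes, and the sign turned in 21 of them. The ranges without 1 library were −0.98 to 0.064 for 2900026A02Rik, −0.051 to 0.13 for 2810004N23Rik, −0.75 to 0.0082 for 9330182L06Rik, −0.19 to 0.63 for 4931428F04Rik, −0.49 to 0.28 for 1110008L16Rik, −0.85 to 0.070 for A730063M14Rik, −0.37 to 0.17 for 4931414P19Rik, −0.15 to 0.72 for 4930526I15Rik, −0.18 to 0.69 for 3010003L21Rik and −0.78 to 0.17 for B230208H11Rik. Among the members grouped by role they were −0.093 to 0.056 for 2410015M20Rik, −0.26 to 0.092 for 0610009O20Rik, −0.017 to 0.15 for 1110004E09Rik, −0.30 to 0.26 for 2310035C23Rik, −0.22 to 0.23 for 3110043O21Rik, −0.21 to 0.22 for 1190002N15Rik, −0.24 to 0.52 for 1600002K03Rik, −0.0026 to 0.30 for 3110062M04Rik, −0.099 to 0.46 for 1810032O08Rik, −0.047 to 0.20 for 1810026B05Rik and −0.086 to 0.031 for 0610037L13Rik. The other 35 kept their sign, and 20 of these moved by over 1.5 times against the fit with all libraries. Examples are Cplane1 (−0.46 to −0.029), Cfap410 (−0.43 to −0.13), Mtln (0.36 to 0.87) and Atp5mpl (0.041 to 0.25). By that measure 0 of the 20 had passed the test (limma). The called 5730408K05Rik (−0.52 to −0.32) and 2810474O19Rik (−0.44 to −0.26) also moved, and from end to end of their ranges by over 1.5 times. With all libraries, 3110043O21Rik and 1190002N15Rik also turned with median centring (−0.020 and −0.015), quantile normalization (−0.035 and −0.027) and voom on median-of-ratios scaling (−0.014 and −0.040). The cause was not tested. An alternative pseudocount was not run on the deposited log2 values. The voom fits started from the recovered reads instead of those values.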
